A study of Mus musculus with 8 samples.

Results

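The 79 genes described here encode the proteins of the cytosolic ribosome, in the cortex of mice in which the microRNA miR-218-5p was inhibited. They were taken by symbol from the 14884 genes of the deposited count table: symbols made only of Rpl or Rps and a number, with at most an a, x or y and an l after it, the stalk genes Rplp0, Rplp1 and Rplp2, and Rpsa, without the kinases named Rps6k and without pseudogene symbols containing -ps. That rule uses symbols and no measured value, though it was chosen with earlier results of these data known. By their known place, 30 encode proteins of the small subunit, 43 proteins of the large subunit, 3 the stalk of the large subunit, and 3 (Rpl36al, Rps27l and Rps4l) are paralogs of other members. Polyadenylated RNA came from the injected site in the cortex of 4 wild-type male mice aged 3 months, 10 days after stereotactic injection. In the LNA218 group the hemisphere had received a locked nucleic acid inhibitor of miR-218-5p, a chemically stabilised antisense oligonucleotide. In the NC group the opposite hemisphere of the same animal had received a scrambled control oligonucleotide. There were 8 libraries, 4 per group, from mice 33, 34, 35 and 36, and LNA218 was injected on the right in mice 33, 34 and 36 and on the left in mouse 35. Both groups were injected, and no uninjected tissue was analysed here. Every value is from bulk tissue, in which fewer cells of a type and less RNA per cell cannot be told apart.

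The cytosolic ribosome reads messenger RNA and joins amino acids into protein: the small subunit holds the decoding site and the large subunit forms the peptide bonds. Its proteins are made in matched amounts from messenger RNAs that mostly begin with a terminal oligopyrimidine (TOP) tract, a C followed by pyrimidines at the very start of the transcript. Through this tract, the kinase mTORC1 and the RNA-binding protein LARP1 control how much of each messenger RNA is translated, so that protein output can change without a change in RNA level. In neurons, ribosomal protein messenger RNAs are found in axons and dendrites as well as in the cell body.

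The mature miR-218-5p that LNA218 targets is printed first because its seed, bases 2 to 8, decides which messenger RNAs it can pair with. The seed is in capitals, and the sequence, 21 bases long, is from the RefSeq annotation of GRCm38.p6, where the same mature sequence lies at chr5:48223966-48223986 and chr11:35616840-35616860, both on the plus strand.
miR-218-5p: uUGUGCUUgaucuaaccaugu

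The complement of the seed, AAGCACA, was found in the annotated 3' UTR of 3 of the 78 members with one (Rps3, Rps20 and Rps15a), which is 3.85%, against 13.5% of 13714 tested genes. Ribosomal protein messenger RNAs have short 3' UTRs: the median was 64.5 nt for members and 941.5 nt for all tested genes with one. The annotated 3' UTRs of Rps3, Rps20 and Rps15a were far longer, at 1059, 3167 and 4722 nt. Each length is that of a single annotated transcript per gene, and which transcript was expressed was not tested. A match describes the sequence and is not a measured binding site.

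The starts of 8 member genes are shown because the TOP tract is the feature of this family through which its translation is known to be set. Each window holds 70 bases before and 30 bases from the RefSeq start (GRCm38.p6), written 5' to 3' on the gene's own strand. Capitals mark the TOP run at the annotated start and any match to CCGGAAG, a core bound by ETS factors.
Rps6 (chr4:86857338-86857437, minus strand): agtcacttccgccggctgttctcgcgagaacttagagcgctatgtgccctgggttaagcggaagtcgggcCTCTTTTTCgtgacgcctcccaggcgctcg
Rps10 (chr17:27635215-27635314, minus strand): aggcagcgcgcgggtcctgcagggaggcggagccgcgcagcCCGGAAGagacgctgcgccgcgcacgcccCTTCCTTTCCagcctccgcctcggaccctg
Rps18 (chr17:33955636-33955735, minus strand): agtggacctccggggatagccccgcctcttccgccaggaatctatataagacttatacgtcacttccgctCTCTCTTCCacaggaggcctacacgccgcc
Rpl28 (chr7:4792895-4792994, plus strand): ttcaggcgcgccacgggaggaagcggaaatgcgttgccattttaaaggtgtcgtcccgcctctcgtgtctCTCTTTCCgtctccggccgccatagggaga
Rpl35 (chr2:39005102-39005201, minus strand): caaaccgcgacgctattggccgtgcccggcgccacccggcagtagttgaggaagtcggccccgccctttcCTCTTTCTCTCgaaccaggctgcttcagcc
Rplp2 (chr7:141447581-141447680, plus strand): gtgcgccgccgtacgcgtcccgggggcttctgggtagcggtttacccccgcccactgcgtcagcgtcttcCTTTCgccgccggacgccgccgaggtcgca
Rpl36a (chrX:134585584-134585683, plus strand): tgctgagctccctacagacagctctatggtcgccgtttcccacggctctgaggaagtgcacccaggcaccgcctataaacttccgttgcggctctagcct
Rpl10 (chrX:74270746-74270845, plus strand): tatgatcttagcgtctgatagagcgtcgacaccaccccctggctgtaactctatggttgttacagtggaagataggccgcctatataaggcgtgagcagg

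Of the 79 members, 58 matched an entry of the promoter table. A C followed by 4 or more pyrimidines stood exactly at the annotated start in 13 of the 58 (22.4%), against 3.01% of 27025 genes in the table. Such a run began within 10 bases of the annotated start, a wider reading chosen after the first count was seen, in 35 of the 58 (60.3%), against 34.4% of all genes. Rpl36a and Rpl10, to which the results below return, had no such run at the annotated start, like most of the 58. Rps27, described below with them, had such a run at its annotated start. In the window from 250 bases before to 50 after the start, on either strand, CCGGAAG was present in 24 of the 58 (41.4%, against 9.93% of all genes) and GGGCGG, an SP1 core, in 36 (62.1%, against 38.2%). AAGATGGC, a YY1 core, was present in 5 (8.62%, against 3.19%), and TATAAA in 6 (10.3%, against 15.7%). Each motif was counted separately, whether or not its matches overlapped those of another.

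All 79 genes were detected and passed the filter on low counts, among 14506 tested genes. Library totals ran from 17409666 to 25154387 estimated counts, and the members held between 1.24% and 1.76% of them in any library, with Wilson 95% intervals of 1.24% to 1.25% in the lowest library and 1.76% to 1.77% in the highest, which cover counting error only. Per kilobase of annotated transcript, the median member stood at 227 CPM per kb (CPM being counts scaled to a common library size by edgeR's TMM factors). Rplp1, a stalk protein, was the most abundant on that scale at 1076 CPM per kb, followed by Rps14, a protein of the small-subunit platform, at 584 CPM per kb and Rps15 at 556 CPM per kb. The lowest were Rpl12 at 13.7 CPM per kb and Rpl5, which carries 5S rRNA into the large subunit, at 14.01 CPM per kb, although proteins of the ribosome are present in nearly equal copy number. A level per kilobase rests on the annotated transcript length, which for Rps15a, at 25.7 CPM per kb, is 5130 nt for a coding sequence of 390 nt. Members were short, with a median transcript of 761 nt against 2900 nt for all tested genes, but were not richer in GC by more than a small margin, at a median of 51.8% against 50.8%.

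Within each animal most ribosomal protein messenger RNAs differed between the hemispheres in the same direction, but that direction was not the same across animals. In mouse 34 it was far higher in the LNA218 hemisphere, in mouse 36 slightly higher, and in mice 33 and 35 lower. Across the 4 animals no member passed the test for LNA218 against NC. The summed level was 12504 CPM in the LNA218 library and 14504 CPM in the NC library of mouse 33, a difference of -13.8%. In mouse 34 it was 17751 CPM in LNA218 and 12354 CPM in NC, or 43.7% more. In mouse 35 it was 13806 CPM in LNA218 and 15320.1 CPM in NC, a difference of -9.88%, and in mouse 36 it was 17320.3 CPM in LNA218 and 16244 CPM in NC, or 6.63% more. The groups overlapped throughout: the lowest of the 8 libraries was the NC library of mouse 34 and the highest the LNA218 library of the same animal. The group means were 15345 ± 2590.3 CPM for LNA218 and 14605.5 ± 1661 CPM for NC (SD, n = 4 each), and the mean within-animal difference of 739.8 CPM was smaller than its SD of 3386 CPM.

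**Figure D1:**
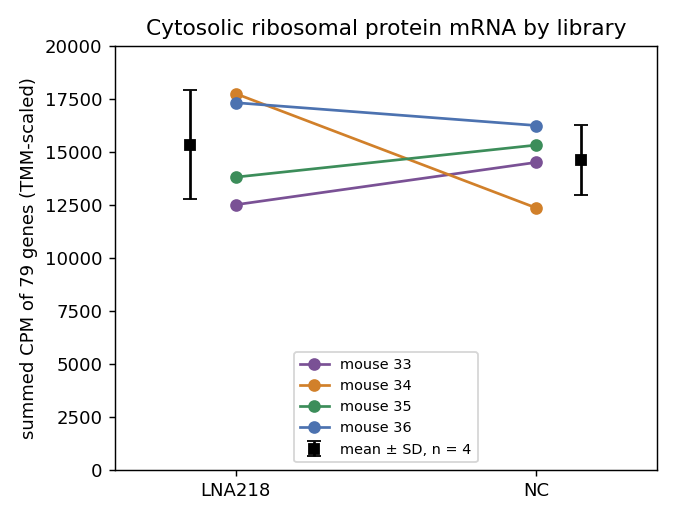
Summed TMM-scaled CPM of the 79 ribosomal protein genes (vertical axis) in the LNA218 and NC hemispheres of each mouse, joined by a line per animal, with the mean ± SD of each group as black squares (n = 4). The lines cross: mouse 34 has the highest LNA218 value (17751 CPM) and the lowest NC value (12354 CPM), and mice 33 and 35 are lower in LNA218.

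The individual genes followed the summed level. In mouse 33 the median difference of the members on the log2(CPM + 0.5) scale was -0.21, and 66 of 79 were lower in LNA218, where 49.9% of all tested genes were lower. In mouse 34 the median was 0.51 and 78 of 79 were higher, where 51.2% of all tested genes were higher. In mouse 35 the median was -0.16 and 74 of 79 were lower, where 50.8% of all tested genes were lower. In mouse 36 the median was 0.096 and 71 of 79 were higher, where 48.4% of all tested genes were higher. All tested genes had medians between -0.0065 and 0.017 in the same animals. The median of the members averaged 0.061 ± 0.33 over the animals (SD, n = 4). The signs were shared by both subunits: small-subunit genes had medians of -0.19, 0.56, -0.13 and 0.13 in mice 33, 34, 35 and 36, and large-subunit genes -0.23, 0.45, -0.19 and 0.085. The only member of mouse 34 below 0 was Rpl5, at -0.027.

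**Figure D2:**
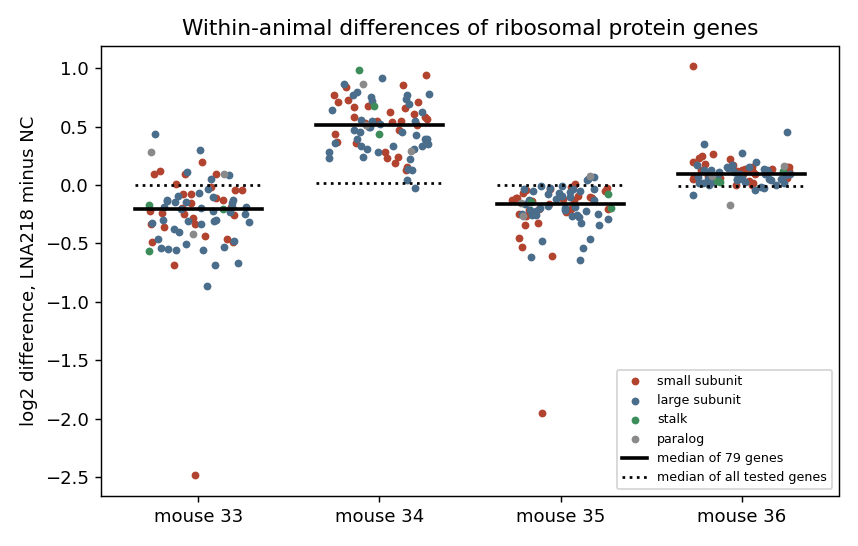
Difference between LNA218 and NC within each mouse, on the log2(CPM + 0.5) scale, for each of the 79 genes, coloured by place in the ribosome, with the median of the genes (solid line) and of all tested genes (dotted line). The cloud lies above 0 in mouse 34 (median 0.51) and mouse 36 (0.096) and below 0 in mouse 33 (-0.21) and mouse 35 (-0.16); the point far below the others in mice 33 and 35 is Rps27.

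The test was edgeR's quasi-likelihood test on the rounded estimated counts, with a block for the animal, and p-values were adjusted by Benjamini-Hochberg over all 14506 genes. None of the 79 members passed an adjusted p of 0.05, nor did any other gene, so 0% of all tested genes were called. The lowest adjusted p of a member was 0.999. At an unadjusted p under 0.05 there was 1 member, Rpl10, which was higher; 160 of all tested genes (1.1%) were higher at that level and 247 passed it in either direction. DESeq2, limma-voom and edgeR's likelihood-ratio test each called 0 members as well, and they called 13, 0 and 11 of all tested genes. In the main fit 55 of 79 members had a fold change above 0, where 47.2% of all tested genes did, and the median log2 fold change was 0.047 for the members and -0.0096 for all tested genes. Member standard errors had a median of 0.15 on the log2 scale. No member had groups that did not overlap, where 1.38% of all tested genes had.

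Leaving out mouse 34 turned the median log2 fold change of the members to -0.088, with 67 of 79 lower; leaving out mouse 33 took it to 0.14, leaving out mouse 35 to 0.12 and leaving out mouse 36 to 0.035. Most members, 58 of 79, were higher in exactly 2 of the 4 animals. Those higher in 4 of 4 animals were 2, Rps4l among them, where 4.58% of all tested genes were higher in 4 of 4, and 0 members were lower in 4 of 4, where 4.05% of all tested genes were.

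Among the small-subunit proteins, 23 of 30 had a fold change above 0, with a median of 0.061, and none passed the test. Rps6, the substrate of the S6 kinases downstream of mTORC1, had 278, 367, 279 and 326 CPM in LNA218 (mice 33, 34, 35 and 36), against 293, 232, 301 and 308 CPM in the NC libraries. It was higher in LNA218 in mice 34 and 36 and lower in mice 33 and 35, and its log2 fold change was 0.14 ± 0.14 (SE; adjusted p = 0.999). Rpsa, which is both a small-subunit protein and a laminin receptor, had 466, 626, 499 and 595 CPM in LNA218, against 471, 418, 511 and 571 CPM in NC, and its log2 fold change was 0.15 ± 0.12 (SE). The groups overlapped for both genes.

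Rps14 and Rps12 had log2 fold changes of 0.21 each, Rps2, which sits by the mRNA entry channel, 0.19, Rps3, a protein of the same channel and a DNA-repair factor, 0.088, and Rps4x, the X-linked form of S4, 0.14, with standard errors between 0.11 and 0.19. Rps23, a protein near the decoding site, lay on the other side at -0.10 ± 0.17 (SE).

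The large-subunit proteins had 26 of 43 fold changes above 0 and a median of 0.035. The most abundant by count were close to 0: Rpl3, which reaches towards the peptidyl transferase centre, at 0.035 ± 0.11 (SE), Rpl4, which lines the exit tunnel, at -0.019 ± 0.095, Rpl6 at 0.079 ± 0.12, Rpl13 at -0.042 ± 0.16 and Rpl13a, also known for silencing inflammatory messenger RNAs in human myeloid cells, at 0.069 ± 0.19. Their animals disagreed in sign. Rpl13a had 385, 749, 544 and 633 CPM in LNA218 (mice 33, 34, 35 and 36), against 558, 433, 569 and 594 CPM in NC, so that mouse 34 alone put LNA218 far above. Rpl21 (-0.10 ± 0.11) and Rpl23 (-0.088 ± 0.16), an inhibitor of the p53 ligase Mdm2 when free of the ribosome, were among the lowest.

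The stalk recruits the elongation factors, and all 3 of its genes had fold changes above 0 without passing. Rplp2 spread the most between animals: it had 102, 227, 154 and 172 CPM in LNA218, against 151, 115, 177 and 168 CPM in NC. Its difference was 0.98 in mouse 34, the highest of any member there, and -0.56 in mouse 33, and its log2 fold change was 0.059 ± 0.22 (SE). Rplp1 stood at 0.11 ± 0.15 and Rplp0, the stalk base, at 0.052 ± 0.12.

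All 3 paralogs had fold changes above 0, with a median of 0.14, and none passed. Rps27l, a p53 target closely related to Rps27, ranged from 9.66 to 16.0 CPM in LNA218 and from 8.61 to 12.4 CPM in NC, with a log2 fold change of 0.14 ± 0.20 (SE). Rpl36al, the autosomal relative of X-linked Rpl36a, stood at 0.0042 ± 0.16. Rps4l, annotated as a transcribed processed pseudogene in GENCODE M21, had 23.8, 26.3, 17.8 and 28.7 CPM in LNA218, against 19.5, 21.5, 16.8 and 25.6 CPM in NC. It was higher in LNA218 in every animal, by 0.076 to 0.29, but the groups overlapped, and its log2 fold change of 0.21 ± 0.11 (SE) did not pass (unadjusted p = 0.091).

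Rps27, Rpl10 and Rpl36a, the members with the fold changes farthest from 0, each have a gene copy listed beside them. The count table lists 22 further genes named as pseudogenes (-ps) or retrogenes (rt) of 21 members, of which 16 were tested, and these copies held 3.99% of the summed CPM of members and copies. Rps27, a zinc-finger protein of the small subunit, had 2.82, 10.9, 2.49 and 9.63 CPM in LNA218 (mice 33, 34, 35 and 36), against 18.1, 6.50, 11.1 and 4.51 CPM in NC. It was thus far lower in LNA218 in mice 33 and 35 and higher in mice 34 and 36, with a log2 fold change of -0.69 ± 0.69 (SE). Its retrogene Rps27rt had 113, 88.9, 74.3 and 133 CPM in LNA218, against 72.6, 82.6, 103 and 121 CPM in NC, and held 92.3% of the pair. Added together, the pair differed by 0.36, 0.16, -0.57 and 0.19 on the log2 scale in mice 33, 34, 35 and 36, so the low value of Rps27 in mouse 33 stood beside a high value of its copy. With copies added to their parent genes before the test, a fit added after seeing the data, Rps27 had a log2 fold change of 0.037 ± 0.15 (SE), opposite in sign.

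Rpl10, a late-joining large-subunit protein needed for subunit joining, showed the same kind of split. It had 55.9, 53.5, 45.9 and 49.1 CPM in LNA218, against 45.4, 40.7, 47.0 and 35.8 CPM in NC, which gave the highest log2 fold change of a member, 0.28 ± 0.12 (SE; unadjusted p = 0.045, adjusted p = 0.999). Its copy Rpl10-ps3 held 82.7% of the pair, with 178, 273, 212 and 254 CPM in LNA218 against 217, 191, 205 and 249.9 CPM in NC. The pair together stood at 0.11 ± 0.12 (SE), and with copies added in, 0 members had an unadjusted p under 0.05. Rpl36a, at 31.7, 62.7, 43.7 and 61.5 CPM in LNA218 against 58.0, 50.6, 63.8 and 55.7 CPM in NC, had a log2 fold change of -0.24 ± 0.20 (SE), or -0.15 ± 0.15 with its copy Rpl36a-ps2. The medians of all members with copies added were close to those without, -0.20, 0.50, -0.16 and 0.096 in mice 33, 34, 35 and 36. The sources used here do not give how the authors shared reads between near-identical copies, so values for single members with large copies are uncertain.

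**Figure D3:**
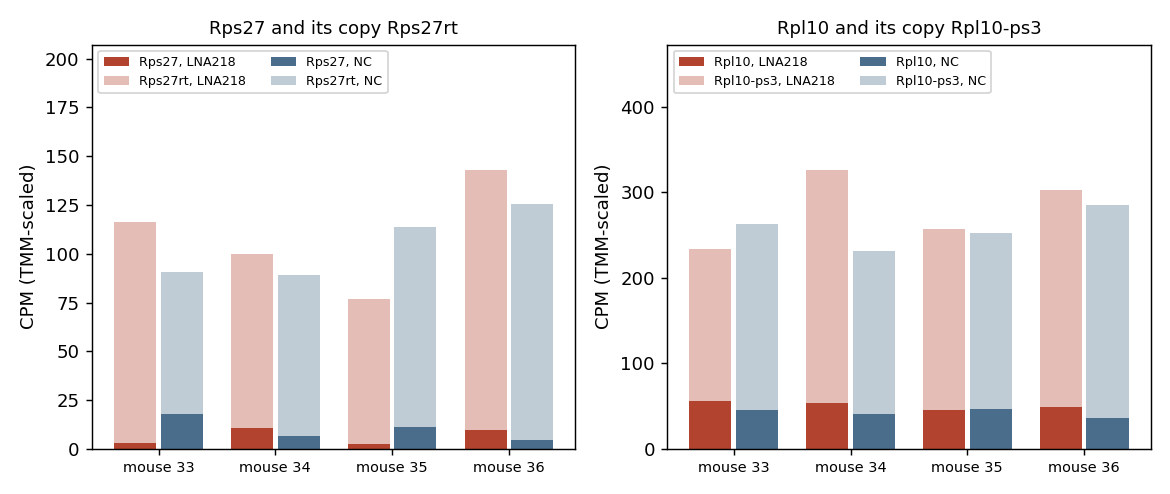
TMM-scaled CPM of Rps27 with its retrogene Rps27rt (left) and of Rpl10 with Rpl10-ps3 (right) in each mouse, with LNA218 in red and NC in blue; solid bars are the member and pale bars, stacked on top, its copy. The copy holds most of the bar in both pairs, 92.3% for Rps27rt and 82.7% for Rpl10-ps3, and the solid part varies apart from the whole bar.

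Of 5 listed ribosomal and ribosome-associated proteins that the symbol rule leaves out, Fau and Rpl22l1 had the signs of the members' medians in every animal, and Rack1 and Rpl7l1 did not. Fau, which carries S30 fused to a ubiquitin-like protein, had 129, 268, 202 and 242 CPM in LNA218, against 189, 145, 214 and 215 CPM in NC. Rack1, a scaffold on the small subunit, was higher in LNA218 in every animal with a log2 fold change of 0.14 ± 0.11 (SE), and Rpl7l1 was higher in every animal at 0.18 ± 0.10. Rps3a1, a small-subunit protein whose symbol the rule misses and which was noticed after its values were seen, stood at 0.14 ± 0.10. None passed the test.

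The other parts of the translation machinery shared the alternation of sign to differing degrees. The 78 mitochondrial ribosomal proteins, encoded in the nucleus but built into a separate ribosome, had medians of -0.12, 0.39, -0.057 and 0.071 in mice 33, 34, 35 and 36, the same signs as the cytosolic ones; 56 had a fold change above 0, 22 below, and 0 passed. Translation factors with TOP messenger RNAs, of which 18 of 20 were in the table, had medians of -0.042, 0.22, -0.019 and 0.058, with 12 above 0, 6 below and 0 passing. Of these, Eif3f stood at 0.14 ± 0.12 (SE) and Npm1, the nucleolar chaperone nucleophosmin, at -0.14 ± 0.11. The 30 ribosome biogenesis genes had medians of -0.10, 0.18, -0.0041 and 0.043, with 19 above 0, 11 below and 0 passing, Fbl, the rRNA methylase fibrillarin, at 0.21 ± 0.15 and Ncl, nucleolin, at -0.20 ± 0.13.

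The regulators of TOP messenger RNAs did not share it. The 19 genes of mTORC1 and other regulators of TOP messenger RNAs, among them Mtor, Rptor, Eif4ebp1 and Larp1, had medians of -0.018, -0.0084, -0.029 and -0.095, with 7 above 0, 12 below and 0 passing; Tsc1, which restrains mTORC1, stood at -0.20 ± 0.10 and Larp4, a poly(A)-binding protein, at -0.32 ± 0.18. Genes of ribosome rescue and ribosomal stress (12 of 14 in the table) had medians of -0.052, -0.10, -0.069 and -0.061, with 4 above 0, 8 below and 0 passing; Usp16, a deubiquitylase, stood at -0.45 ± 0.20 (unadjusted p = 0.053) and Mdm2 at -0.21 ± 0.12. The differences of these lists from the ribosomal proteins were not tested.

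**Figure D4:**
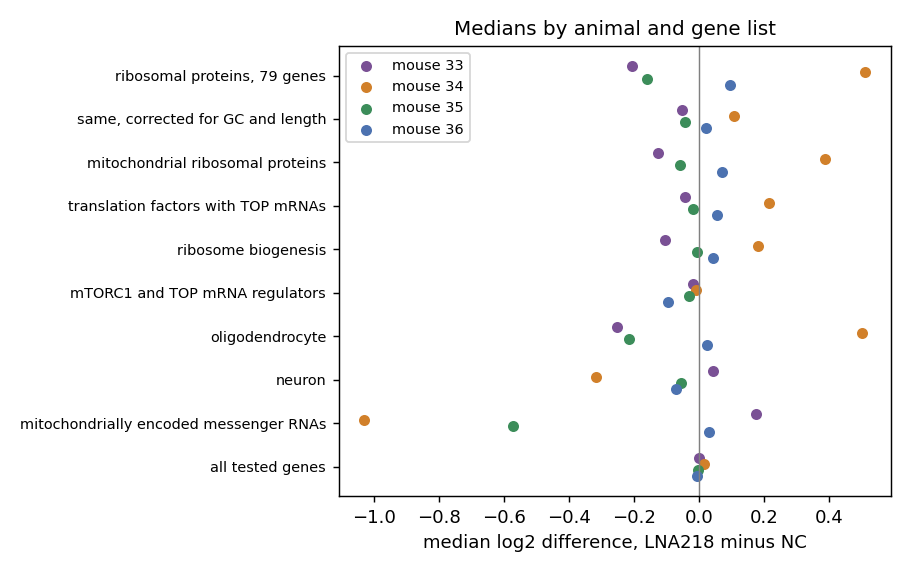
Median difference between LNA218 and NC on the log2(CPM + 0.5) scale, within each of the 4 mice (colours), for the ribosomal protein genes before and after correction for GC content and length and for other gene lists. The ribosomal proteins spread from -0.21 in mouse 33 to 0.51 in mouse 34, and from -0.050 to 0.11 after the correction. The genes of mTORC1 and other regulators of TOP messenger RNAs stay between -0.095 and -0.0084.

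The dependence of the differences on GC content and length varied between animals too, in part with the ribosomal proteins. Among 10316 genes that are no member, with mean log2 CPM above 3, the rank correlation of the within-animal difference with GC content was -0.62, 0.69, 0.24 and -0.22 in mice 33, 34, 35 and 36, and with transcript length 0.33, -0.55, 0.12 and -0.27; these are across genes, which are not independent replicates. In mouse 34, where the members were highest in LNA218, GC-rich and short transcripts were also higher there, and in mouse 33 both were lower. In mice 35 and 36 the sign for GC content was the opposite of the members' median. Short transcripts were lower in LNA218 in mouse 35 and higher in mouse 36, as the members were. For length, the direction was that of the members' median in each animal, with weak correlations in mice 35 and 36. GC content and length together accounted for 56.6%, 56.3%, 34.4% and 26.7% of the variance of the deviations of the LNA218 libraries (mice 33, 34, 35 and 36), against 9.19%, 51.9%, 18.8% and 5.98% for the NC libraries. After removal of that dependence, fitted on genes that are no member, the medians of the members were -0.050, 0.11, -0.042 and 0.023. These keep their signs, at a mean of 0.0099 ± 0.074 (SD, n = 4). The numbers of members higher in LNA218 were then 33, 56, 30 and 46 of 79. The part of GC content and length in the members' differences was not tested.

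Within the family, the relation to coding length was strongest in mouse 35. Across 78 members, the rank correlation of the difference with coding length was 0.60 in mouse 35, and 0.16, -0.12 and -0.26 for mice 33, 34 and 36. In mouse 35 the 26 members with the shortest coding sequences, 75 to 396 nt, had a median of -0.26 with 26 of 26 lower in LNA218, the middle 26 a median of -0.18, and the 26 longest, 564 to 1257 nt, a median of -0.078. Rpl39, an exit-tunnel protein with a coding sequence of 153 nt, had 77.0, 57.6, 39.4 and 84.2 CPM in LNA218 (mice 33, 34, 35 and 36), against 56.8, 47.3, 60.9 and 66.1 CPM in NC. It was higher in LNA218 in mice 33, 34 and 36 and lower in mouse 35, and its log2 fold change was 0.12 ± 0.18 (SE). In mouse 33 its difference of 0.44 was the highest of any member, against a median of -0.21.

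**Figure D5:**
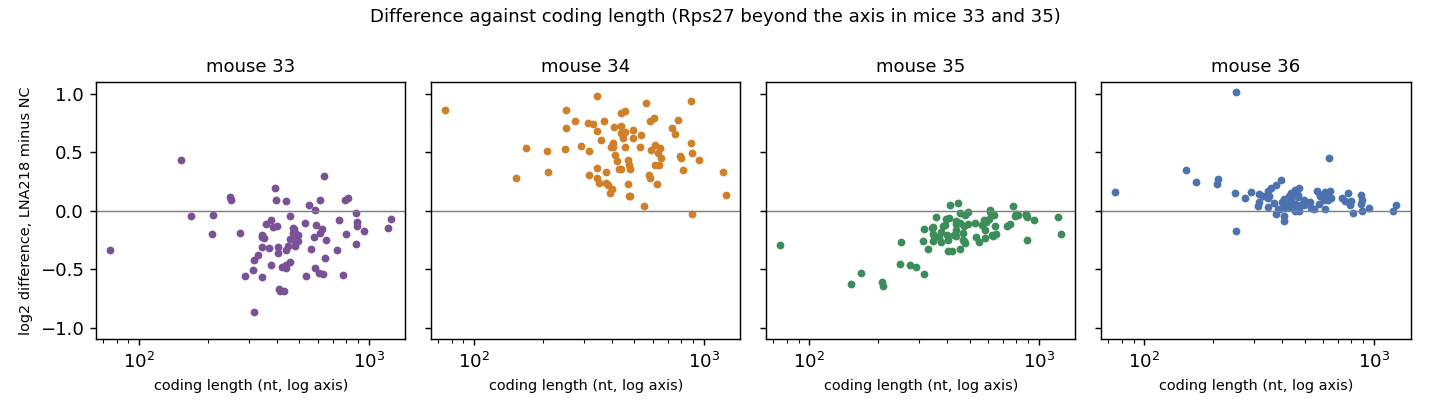
Difference between LNA218 and NC on the log2(CPM + 0.5) scale against coding length (log axis, nt) for the 78 members with an annotated coding sequence, in a panel per mouse. In mouse 35 the shortest genes lie lowest (rank correlation 0.60); in mice 33, 34 and 36 it was 0.16, -0.12 and -0.26.

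Markers of other cell types and the mitochondrial share also differed between the paired libraries. Of 11 choroid plexus markers, 9 passed the filter on low counts. Those 9 summed to 90.0, 2632, 26.1 and 1724 CPM in LNA218 (mice 33, 34, 35 and 36), against 34.8, 35.8, 25.03 and 86.7 CPM in NC. The 2 libraries with the most choroid plexus RNA were thus also the 2 with the highest summed ribosomal protein level. Without mice 34 and 36, a fit added after seeing the data, the median log2 fold change of the members was -0.19 with 72 of 79 lower. Mice 33 and 35, which remained, had member medians of -0.21 and -0.16. The negative sign was thus fixed by which animals were left out, and the fit cannot tell whether choroid plexus RNA had a part. In that fit 1 member, Rps27, passed (adjusted p = 0.00082), where 0.0893% of all tested genes passed, with 1 residual degree of freedom. Its copy Rps27rt held 92.3% of the pair, and the pair together differed by 0.36 in mouse 33 and -0.57 in mouse 35. The call is therefore uncertain. Of the 9 markers tested in all 8 libraries, 9 had a fold change above 0, 8 at an unadjusted p under 0.05 and 0 after adjustment. The part of this tissue in the members' differences was not tested.

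Oligodendrocyte markers had medians of -0.25, 0.50, -0.21 and 0.025 in mice 33, 34, 35 and 36, with the signs of the members, and a summed level of 6120 to 8488 CPM in LNA218 and 6637 to 7442 CPM in NC. The 8 neuron markers had medians of 0.043, -0.32, -0.056 and -0.069, with a summed level of 6142 to 7496 CPM in LNA218 and 6956 to 7577 CPM in NC. Neuron markers were present in all libraries, as the label of cortex calls for. Fibroblast markers, 11 of 11 with a fold change above 0 and 6 at an unadjusted p under 0.05, had medians of 0.60, 0.90, 0.64 and -0.14, which do not share the members' signs. Messenger RNAs encoded by the mitochondrial genome, all 13 with a fold change below 0, had medians of 0.17, -1.03, -0.57 and 0.032. Mitochondrially encoded genes held 3.68%, 1.87%, 2.36% and 3.65% of counts in LNA218, against 3.15%, 3.56%, 3.50% and 3.69% in NC. The part of each in the members' differences was not tested.

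The side of injection could be separated from treatment only through mouse 35. Taken as right minus left, the members' medians were -0.21, 0.51, 0.16 and 0.096 in mice 33, 34, 35 and 36, and a fit with a term for the hemisphere beside the animal block gave a median log2 fold change of -0.025 with 48 of 79 lower and 0 passing.

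The authors' deposited table of LNA218 against NC puts the family on the other side. There, 72 of 79 members in the authors' deposited table had a log2 fold change below 0, where 55.6% of its 14884 genes did, and the median was -0.13 for members and -0.016 for all genes. At an unadjusted p under 0.05 it lists 30 members as lower, where 7.02% of its genes are. Rpl36a is the only member past an adjusted p of 0.05 there, with a log2 fold change of -0.43 and an adjusted p of 0.0016 in the authors' deposited table, where 0.148% of its genes pass and are lower. Rpl10 has 0.46 with an adjusted p of 0.056 in the authors' deposited table, and Rps27 has -1.37 with an adjusted p of 0.12. Which terms the model behind that table held is not given in the sources used here.

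Fits with estimated hidden covariates, added after seeing the data, also gave medians below 0. With 1 surrogate variable beside the animal block, the median log2 fold change of the members was -0.066, with 65 of 79 lower and 0 passing. With 2 surrogate variables it was -0.17, with 74 of 79 lower, and 15 members passed, all lower, where 0.731% of all tested genes passed and were lower. Among them were Rpl11, Rpl13, Rpl23, Rpl41, Rplp2, Rps18 and Rps29. That fit leaves 1 residual degree of freedom among 8 libraries, and the surrogate variables were estimated from the same libraries as the test. The sign of the family's median thus differed between the paired fit of the counts as deposited and the fits with hidden covariates.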

How the data were processed

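RNA from both injected hemispheres of 4 mice gave 8 libraries. The deposited table holds estimated counts per gene; per the submitters' processing notes the work used Salmon, edgeR and GRCm39, for which no roles and versions are stated there. Another deposited table holds natural log values, equal to ln(CPM + 1) to within 0.0032. The authors' deposited comparison holds log2 fold changes, a likelihood-ratio score, and p-values. No annotation of GRCm39 was used here: lengths, GC content and 3' UTRs are from GENCODE M21 (GRCm38), and promoters and the microRNA from RefSeq (GRCm38.p6).

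Of the estimated counts, 70.8% were not whole, and they were rounded. Genes were kept by filterByExpr (minimum count 10), which removed 378, and scaled by TMM. The main test was edgeR 4.0.16 (quasi-likelihood, R 4.3.3) with the animal as a block, adjusted over all 14506 genes with a threshold of 0.05. It was checked on simulated counts with larger changes than any member's, and without dependence on GC content or length. That check does not show how the test does on smaller changes or with such dependence. Within-animal differences used log2(CPM + 0.5). The GC and length correction used splines with 5 degrees of freedom. Alternatives used DESeq2 1.42.0, limma 3.58.1 and sva 3.50.0. The pairing comes from the labels, since the libraries of a number are hemispheres of the same animal; the correlations of their deviations were 0.080, -0.64, 0.45 and 0.19 in mice 33, 34, 35 and 36. In the main test, p-values rest on how the within-animal difference varied over the animals, with spread estimates shared between genes.

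Members and lists were chosen with earlier results of these data known. Named were the 5 most abundant members of each subunit, the stalk genes and Rpsa, the paralogs with their relatives, the 5 largest fold changes in each direction, the 5 smallest p-values, the 2 lowest levels, any member past an adjusted p of 0.05 in the authors' table, and the 2 smallest p-values of other lists. Others were named after their values were seen, and the results of some genes are not reported here. Medians of astrocyte markers were 0.21, -0.27, 0.11 and -0.099, of microglia -0.13, 0.18, 0.077 and -0.063 and of red blood cell genes -0.25, 0.18, -0.53 and -9.6e-05 in mice 33, 34, 35 and 36, and no gene of these lists passed.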

Additional observations from a re-analysis of the deposited data

Results flagged for a closer look

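Of 160 groups of 4 values examined, Rpl28, a large-subunit protein, stood out once: mouse 33 had by far the lowest LNA218 value, at 6.45 on the log2 CPM scale (87.2 CPM, against 159, 154 and 162 CPM with LNA218 for mice 34, 35 and 36, and 140.4, 114, 148 and 159 CPM with NC for mice 33, 34, 35 and 36). Chance flags about 1 group in 20, and 1 of 160 was found. Rpl28 has a copy, Rpl28-ps1, that held 22.8% of the pair, and the pair together differed by -0.39 between LNA218 and NC in mouse 33.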

How the results depend on the processing

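Without mouse 34 the median log2 fold changes of all members, of small-subunit and of large-subunit members were -0.088, -0.084 and -0.10, and the mean difference in summed CPM was -812.6; over the 4 animals left out in turn these ran to 0.14, 0.15, 0.13 and 1653.2. A hemisphere term with the replicate block gave -0.025, -0.015 and -0.045, and the GC and length correction with the replicate block gave -0.0095 for large-subunit members. Of the settings added after seeing the data, leaving out mice 34 and 36 gave -0.19, -0.18 and -0.22 with 1 member called, 1 surrogate variable with the replicate block gave -0.066, -0.059 and -0.079, and 2 surrogate variables gave -0.17, -0.16 and -0.18 with 15 called. The cause was not tested. Without the replicate block the median was 0.061 with 0 called, and leaving the block out changed no call.

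With each animal left out in turn, the log2 fold changes that changed sign ran for Rpl13 from -0.22 to 0.13, Rpl13a from -0.17 to 0.27, Rpl23 from -0.26 to 0.048, Rpl3 from -0.061 to 0.097, Rpl36al from -0.16 to 0.15, Rpl4 from -0.066 to 0.040, Rpl6 from -0.055 to 0.15, Rplp0 from -0.071 to 0.13, Rplp1 from -0.074 to 0.22, Rplp2 from -0.24 to 0.27, Rps2 from -0.052 to 0.35, Rps23 from -0.25 to 0.097, Rps27l from -0.12 to 0.28, Rps3 from -0.11 to 0.23 and Rps6 from -0.031 to 0.22. The hemisphere term gave -0.048 for Rpl36al and -0.025 for Rplp2, and the GC and length correction gave -0.021 for Rpl3, -0.013 for Rpl36al, -0.0092 for Rplp0 and -0.0023 for Rplp2. With copies added in, Rps27 stood at 0.037. The other settings, among them DESeq2's size factors, testing without the low-count filter, upper-quartile scaling, and the DESeq2, limma-voom and likelihood-ratio tests, kept the sign of the members' median and called 0 members. The Wilson intervals of the members' share of counts, which cover counting error only, were far narrower than the spread of that share between the 8 libraries.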
